A study of Mus musculus with 2 samples.

Results

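Head-to-head bidirectional promoters are stretches of DNA from which a pair of neighbouring protein-coding genes is transcribed in opposite directions. They were taken from the GENCODE M21 annotation of the mouse: the minus-strand gene lies to the left, the plus-strand gene to the right, the gene records do not overlap, and their 5′ ends are at most 1000 bp apart. On the autosomes, 734 pairs met this rule, with 1448 of 20807 protein-coding genes, or 6.96%. A pair's window ran from 200 bp inside the minus-strand gene, across the gap between the 5′ ends, to 200 bp inside the plus-strand gene. The members were the open-chromatin peaks that overlapped these windows, 825 of 75753 peaks in replicate 1 and 834 of 77035 in replicate 2. The rule for the windows uses the annotation and no measured value, though it was set with earlier results of these data known. Of the genes, 20 lay in 2 pairs each, so that 40 pairs shared a gene and the windows merged into 714 separate loci. In 3 cases the annotation held a second record of a gene, which gave a pair with the same symbols as another. A predicted gene model was part of 80 pairs.

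The data came from DNase-seq, which marks DNA that DNase I cuts readily because no nucleosome covers it. Males were taken at 14 days of age for their frontal cortex, and their strain was B6CASTF1/J, a first-generation cross between an inbred strain and a wild-derived one. The study held 1 group with 2 libraries, here called replicate 1 and replicate 2, and the labels give 3 males for each. The tissue samples were separate but carried a shared donor number, and their spread may be technical in part. Frontal cortex is a mixture, and a peak in few cells cannot be told apart from a weak peak in many. There was no second condition, and the windows are not replicates of one, so no p-values were computed. A peak's height is the authors' deposited signal value, on a scale set per library and not stated in the sources used here. At the 5′ ends of tissue markers, 4 of 8 genes of cortical neurons had a peak in both libraries (Camk2a, Neurod2, Snap25 and Syt1). None of 4 Hox genes silent in forebrain and none of 4 genes of other organs had one. Of the other cell types, 1 of 3 oligodendrocyte genes (Olig2) and 1 of 2 endothelial genes (Flt1) were open in both libraries. None of 3 astrocyte genes and none of 3 microglial genes was.

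In a bidirectional promoter, separate sets of initiation machinery assemble at the edges of a shared nucleosome-depleted region and transcribe away from each other. Such promoters are known as rich in CpG and poor in TATA boxes. They are common among genes that most cells use, such as those of DNA repair, mitochondria and RNA processing. For comparison, 17294 one-sided promoters were used: coding genes with no other coding 5′ end within 1000 bp and no noncoding gene record facing them within that distance. A one-sided window covered 200 bp inside the gene and the median gap of the pairs plus 200 bp upstream. Another 832 coding genes faced a noncoding gene record and formed an intermediate class. A further 1233 coding genes lay near another coding 5′ end in some other arrangement and were left out.

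The intervals between the 5′ ends of several pairs show what these promoters are made of. All are read on the plus strand of mm10, 5′ to 3′, so that the left gene starts just before the first base and the right gene just after the last. Capitals mark matches, on either strand, to 15 short consensus motifs that are listed with their shares further on. The first set holds 4 of the 10 tallest pairs: Hjurp-Trpm8 (chr1:88277634-88277660), Aamp-Pnkd (chr1:74284739-74284929), Uqcrq-Gdf9 (chr11:53430832-53431022) and Ccdc151-Prkcsh (chr9:22002635-22002805).
Hjurp-Trpm8: ggggagggacgagagggagggtccgcc
Aamp-Pnkd: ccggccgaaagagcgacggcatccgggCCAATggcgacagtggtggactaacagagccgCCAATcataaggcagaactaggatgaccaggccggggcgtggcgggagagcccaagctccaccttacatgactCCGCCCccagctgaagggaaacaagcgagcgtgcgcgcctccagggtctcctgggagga
Uqcrq-Gdf9: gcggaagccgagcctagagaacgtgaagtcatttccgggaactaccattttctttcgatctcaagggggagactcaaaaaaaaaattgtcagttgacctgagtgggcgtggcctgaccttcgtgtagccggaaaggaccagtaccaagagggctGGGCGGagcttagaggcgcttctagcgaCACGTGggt
Ccdc151-Prkcsh: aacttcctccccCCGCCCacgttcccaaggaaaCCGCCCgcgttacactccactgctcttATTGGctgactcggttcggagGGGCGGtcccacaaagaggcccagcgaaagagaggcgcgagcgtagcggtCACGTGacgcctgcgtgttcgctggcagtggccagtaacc
The tallest promoter of all, Hjurp-Trpm8, had only 27 bases between its 5′ ends, and none of the 15 motifs matched in them. Of the 3 GC boxes (CCGCCC or its complement GGGCGG) of Ccdc151-Prkcsh, all overlapped a footprint, a short dip in cutting that may mark a bound protein, in both libraries. Its CACGTG element was also footprinted in both libraries, and its CCAAT box (read here as ATTGG) in neither.

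The second set shows 3 pairs of the mitochondrial machinery: Mrps12-Sars2 (chr7:28741821-28741991), Hadha-Hadhb (chr5:30155163-30155247) and Mrpl32-Psma2 (chr13:14613166-14613239).
Mrps12-Sars2: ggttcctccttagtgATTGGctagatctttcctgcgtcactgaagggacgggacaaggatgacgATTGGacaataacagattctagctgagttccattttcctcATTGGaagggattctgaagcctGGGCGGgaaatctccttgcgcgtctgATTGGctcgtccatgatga
Hadha-Hadhb: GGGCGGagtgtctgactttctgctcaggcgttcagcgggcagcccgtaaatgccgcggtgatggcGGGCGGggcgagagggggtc
Mrpl32-Psma2: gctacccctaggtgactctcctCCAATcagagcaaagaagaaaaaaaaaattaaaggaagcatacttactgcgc
The promoter of Mrps12 and Sars2, a mitochondrial ribosomal protein and the mitochondrial seryl-tRNA synthetase, held 4 CCAAT boxes, all in the same orientation, at positions 16, 65, 105 and 153 of the interval. Footprints overlapped the boxes at 65 and 105 in replicate 1 and none of the 4 in replicate 2, whereas the GC box at 127 was footprinted in both.

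The third set holds the tallest pair with a site of each of 4 motifs between the 5′ ends, among gaps up to 200 bp and outside the pairs already shown: ETS in Rer1-Morn1 (chr4:155086383-155086576), NRF1 in Bckdha-Exosc5 (chr7:25658982-25659163), BANP in Styxl1-Mdh2 (chr5:135778386-135778479) and CRE in Glyr1-Ubn1 (chr16:5049864-5050056).
Rer1-Morn1: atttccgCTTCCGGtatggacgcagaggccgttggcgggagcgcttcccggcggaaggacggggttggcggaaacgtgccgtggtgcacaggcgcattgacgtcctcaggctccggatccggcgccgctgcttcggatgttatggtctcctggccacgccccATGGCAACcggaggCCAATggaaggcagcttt
Bckdha-Exosc5: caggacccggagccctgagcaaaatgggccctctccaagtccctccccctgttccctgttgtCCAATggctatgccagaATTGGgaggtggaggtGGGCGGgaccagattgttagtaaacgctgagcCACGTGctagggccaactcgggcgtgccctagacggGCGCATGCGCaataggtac
Styxl1-Mdh2: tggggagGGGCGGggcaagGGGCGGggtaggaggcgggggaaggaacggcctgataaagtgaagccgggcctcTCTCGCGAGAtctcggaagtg
Glyr1-Ubn1: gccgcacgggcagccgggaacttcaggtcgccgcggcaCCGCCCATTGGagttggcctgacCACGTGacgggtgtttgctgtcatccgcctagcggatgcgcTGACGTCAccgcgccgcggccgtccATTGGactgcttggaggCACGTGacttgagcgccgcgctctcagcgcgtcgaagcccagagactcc
The NRF1 element of Bckdha-Exosc5, a palindrome starting at position 164, lay in a footprint in both libraries. So did the CRE at position 103 of Glyr1-Ubn1. The ETS match at position 8 of Rer1-Morn1 lay in none, while the RFX element (X box) and the CCAAT box near the Morn1 end lay in footprints in both libraries.

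The last set shows 2 pairs without a peak in either library: Col4a4-Col4a3 (chr1:82586850-82586920) and Tradd-Fbxl8 (chr8:105264610-105264647).
Col4a4-Col4a3: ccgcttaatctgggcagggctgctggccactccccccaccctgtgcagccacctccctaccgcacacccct
Tradd-Fbxl8: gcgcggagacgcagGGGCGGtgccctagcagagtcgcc
The interval of the collagen pair held no match to the 15 motifs, and that of Tradd and Fbxl8 held 1 GC box. The GC content of these intervals was 69.0% in Col4a4-Col4a3 and 76.3% in Tradd-Fbxl8. In the 11 open examples it ran from 41.9% in Mrpl32-Psma2 to 77.8% in Hjurp-Trpm8, a range that holds both.

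Head-to-head promoters were open in nearly every case. A peak was present in both libraries at 685 of 734 pairs (93.3%), against 7660 of 17294 one-sided promoters (44.3%), a difference of 49.0 percentage points. A pair's window holds 2 gene starts and counts as open with a peak at either, while a one-sided window holds 1. How much this adds to the difference was not tested. Over all 3 kinds of window the share was 47.7%. Genes facing a noncoding record lay between, with 649 of 832 windows open in both libraries (78.0%). Replicate 1 had a peak at 93.3% of pairs and 46.2% of one-sided promoters, and replicate 2 at 93.9% and 47.5%. The libraries thus differed by about a percentage point, far less than the classes did.

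Base composition moved with this result. The median GC content of the windows was 62.8% for pairs and 54.6% for one-sided promoters, and the observed-to-expected ratio of CpG was 0.829 and 0.475. With one-sided windows weighted to the pairs' deciles of GC content, 66.1% were open in both libraries, and the difference was 27.2 points. Gene function moved with it too. Among pairs with a gene from 10 of the 12 gene families described further on (all but zinc finger and synaptic genes), 113 of 120 were open (94.2%), against 324 of 393 one-sided promoters of the same families (82.4%). The part of either in the difference was not tested beyond these values.

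Paired promoters were also more strongly open. The tallest peak of an open pair had a median height of 5.30 in replicate 1 and 5.10 in replicate 2. Open one-sided promoters had 2.65 and 2.49, and genes facing a noncoding record 3.85 and 3.59. The tallest peak was taken over 2 gene starts in a pair and over 1 in a one-sided window. The ratio of pairs over one-sided promoters was 2.02 ± 0.0331 (SD, n = 2 libraries). It was 1.86 after weighting for GC content, and within the 10 pooled gene lists it was 1.30 in replicate 1 and 1.31 in replicate 2. At the 10th percentile the heights were 1.90 in replicate 1 and 1.89 in replicate 2 for pairs, against 0.740 and 0.701 for one-sided promoters.

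**Figure D1:**
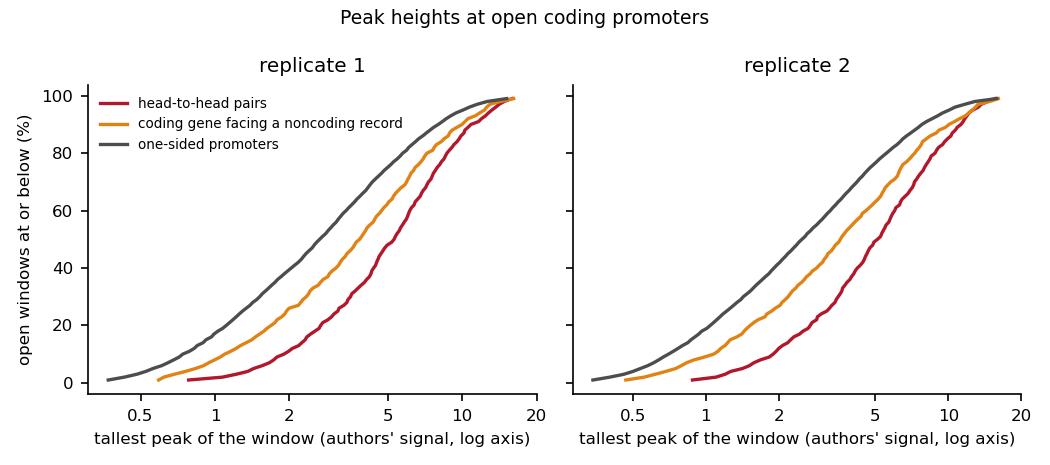
Share of open windows (%, vertical axis) whose tallest peak is at or below a height (authors' signal, log axis), in replicate 1 (left) and replicate 2 (right), for head-to-head pairs, coding genes facing a noncoding record, and one-sided promoters. The curve of the pairs lies furthest right in both libraries, with medians of 5.30 and 5.10 against 2.65 and 2.49 for one-sided promoters.

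Among all peaks of the genome, the members stood near the top. Their median height was 4.47 in replicate 1 and 4.35 in replicate 2, against 0.848 and 0.801 over all peaks of the same library. The median member outranked 94.3% of peaks in replicate 1 and 94.2% in replicate 2. Of the 1000 tallest peaks, which are 1.32% of all peaks in replicate 1 and 1.30% in replicate 2, 122 were members in each library. That was 14.8% and 14.6% of the members. Members made up 1.09% and 1.08% of all peaks but 12.2% of the tallest 1000. One-sided promoter peaks, 9031 of 75753 peaks in replicate 1 and 9482 of 77035 in replicate 2, supplied 546 and 558 of the tallest 1000. A larger share among the tallest peaks was thus not particular to pairs. Member peaks were only slightly wider than others: a median of 260 bp in both libraries, against 240 and 260 bp for one-sided promoter peaks and 200 and 207 bp for all peaks. A few members, 36 in replicate 1 and 43 in replicate 2, overlapped another peak of the same list.

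The layout of the open region varied with the gap between the 5′ ends. Gaps ran from 1 to 987 bp with a median of 128 bp, and 82.0% were at most 300 bp. Up to 100 bp (306 pairs), a single peak lay over both 5′ ends in 89.0% of open pairs in replicate 1 and 91.1% in replicate 2. This share was 59.2% in replicate 1 and 111 of 185 pairs in replicate 2 for gaps of 101 to 200 bp, 30.4% and 33.3% for 201 to 300 bp, and 9.52% and 14.3% for 301 to 400 bp. Above 600 bp it was 0 of 39 open pairs in replicate 1 and 1 of 40 in replicate 2. The widest gap under 1 peak in both libraries was the 418 bp between Aldh6a1, a mitochondrial enzyme of valine breakdown, and Lin52, a subunit of the cell-cycle complex DREAM. Its peak had a height of 10.8 in replicate 1 and 8.26 in replicate 2. At the narrow end, Bag4 and Lsm1 start on neighbouring bases, 1 bp apart, and shared a peak of 4.80 and 5.72. Over the whole set, 497 pairs had exactly 1 peak in both libraries and 96 had 2 in both.

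Height followed the gap in a hump. The median tallest peak was 4.32 in replicate 1 and 4.12 in replicate 2 for gaps up to 100 bp, 5.89 and 5.67 for 101 to 200 bp, 6.19 and 6.24 for 201 to 300 bp, 6.77 and 6.63 for 301 to 400 bp, and 7.11 and 7.33 for 401 to 600 bp. It was 4.69 and 4.47 for gaps above 600 bp. Wider gaps make longer windows that can hold more peaks. Among pairs with exactly 1 peak in both libraries the medians were 4.47 and 4.35 (250 pairs), 6.41 and 6.05 (140 pairs), 8.42 and 8.27 (61 pairs) and 10.2 and 9.91 (19 pairs) from the narrowest bin to 301 to 400 bp. They were 7.40 and 7.01 in the 14 pairs of 401 to 600 bp, and 4.38 and 4.52 in the 13 pairs above. Both libraries gave the same order up to 400 bp. The share of pairs with a peak was 95.4% and 95.8% up to 100 bp and 79.6% and 81.6% above 600 bp. Pairs near the median of their bin illustrate the range. Rps27, a ribosomal protein, and Rab13, a vesicle GTPase, start 44 bp apart and shared a peak of 4.22 and 4.35. Numa1, the spindle pole protein, and Lrrc51 start 216 bp apart and had 6.53 and 5.78. Sirt6, a chromatin deacetylase, and Ankrd24 start 743 bp apart and had 4.38 and 4.52. Just inside the limit of the rule, at 901 to 1000 bp, 8 of 10 pairs were open in each library. Just outside it, at 1001 to 1100 bp, 10 and 9 of 11 were.

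**Figure D2:**
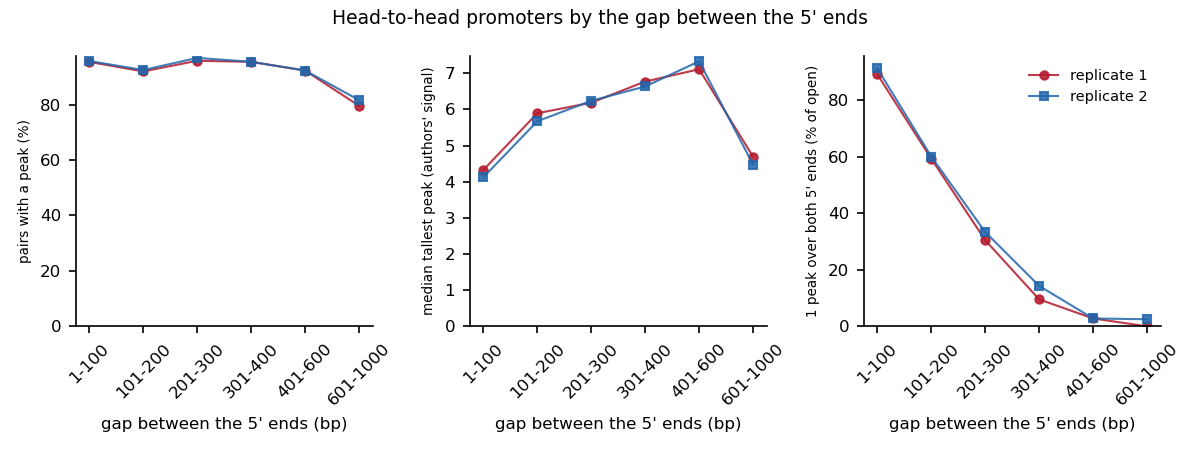
Head-to-head pairs in 6 bins of the gap between the 5′ ends (bp, horizontal axis), with replicate 1 as circles and replicate 2 as squares. Left, the share of pairs with a peak. Middle, the median height of the tallest peak (authors' signal). Right, the share of open pairs in which 1 peak covers both 5′ ends, which is 89.0% and 91.1% in the narrowest bin and 0 of 39 and 1 of 40 pairs in the widest.

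The most significant cutting lay between the 5′ ends in most open pairs. Its place was taken as the middle of the first stretch with the lowest false discovery rate of cutting, cut to the window. This place lay between the 5′ ends in 65.0% of open pairs in replicate 1 and 63.9% in replicate 2. The part between the ends was only 26.7% and 26.8% of the window. A stretch over most of a window has its middle between the ends in a pair and upstream in a one-sided window. How much this adds to the shares was not tested. In one-sided promoters the place lay upstream of the 5′ end in 67.0% and 64.4% of cases, with 62.0% of the window upstream. Their upstream stretch includes the outer 200 bp and is thus not matched to the gap. The median distance of this place to the nearer 5′ end was 37 and 36 bp, against 60 and 63 bp in one-sided promoters, where only 1 end was counted. Of the member peaks, 58.5% and 55.3% had their midpoint between the 5′ ends. For gaps above 600 bp it was 68.5% and 66.7%, near the 64.9% and 65.0% of the window that lay between the ends. Seen from each gene, the open stretch of pairs reached upstream and stopped sooner inside the gene. At 200 bp upstream, 41.0% and 45.7% of the genes of open pairs were under a peak, against 29.0% and 32.2% of open one-sided genes. With a median gap of 128 bp, this position lies inside the partner gene in most pairs, and one-sided genes have no such partner. At 200 bp inside the gene, the shares under a peak were 13.2% and 15.3% against 21.9% and 27.9%. Both libraries gave the same order at both places.

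**Figure D3:**
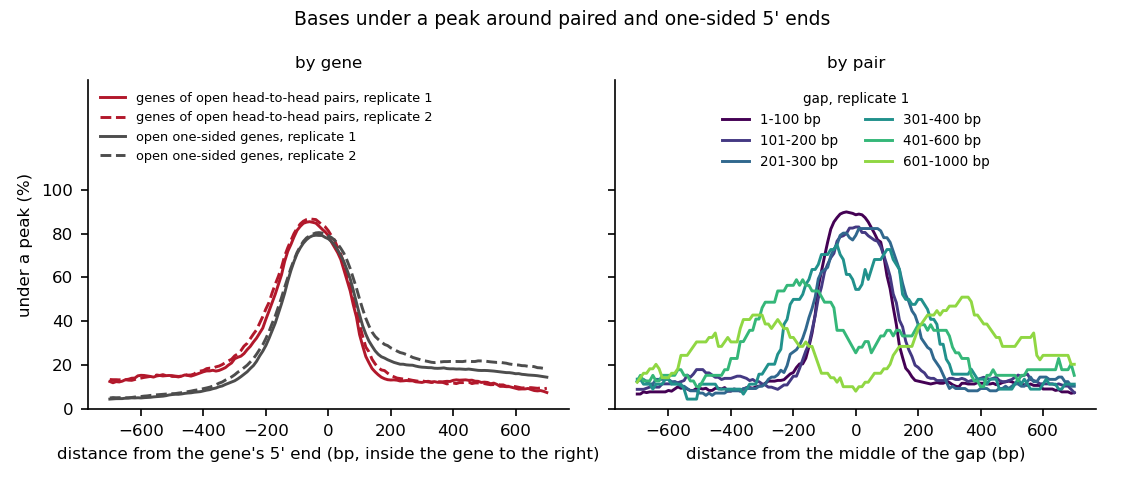
Share of positions under a peak (%, vertical axis). Left, around the 5′ end of genes of open head-to-head pairs and of open one-sided genes in both libraries, with the gene body to the right. Right, around the middle of the gap for pairs in 6 gap bins of replicate 1: gaps up to 300 bp give 1 central plateau, while above 400 bp the curve splits into separate shoulders on the left and right.

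The tallest head-to-head promoter joined Hjurp, the chaperone that loads the centromeric histone CENP-A, and Trpm8, the cold-sensing ion channel (chromosome 1, 5′ ends at 88277633 and 88277661). Its 1 peak reached 21.2 in replicate 1 and 23.9 in replicate 2. Aamp-Pnkd followed with 17.2 and 18.3, and Cdca2-Kctd9 with 17.6 and 17.1. Pnkd is a gene of paroxysmal dyskinesia in humans, and Cdca2 anchors a phosphatase to mitotic chromatin. Tom1l2-Drc3 had 17.5 and 16.6, and Cep57-Fam76b 16.0 and 17.4. Uqcrq, a subunit of respiratory complex III, shares its promoter with Gdf9, the oocyte growth factor, and that peak stood at 16.8 and 15.6. Ccdc151, a dynein-docking protein of motile cilia, and Prkcsh, the glucosidase II beta subunit of the endoplasmic reticulum, shared a peak of 15.9 and 15.8. Hsp90b1, the endoplasmic reticulum chaperone GRP94, and Ttc41 had 15.5 and 15.9 over a gap of 302 bp. Alg12-Creld2, both genes of the endoplasmic reticulum, had 15.7 and 15.5. Gdf9, Trpm8 and Ccdc151 are best known from oocytes, sensory neurons and ciliated cells, and DNase-seq does not tell which gene of a pair was transcribed.

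At the other end, Sox6-1110004F10Rik had the lowest peaks among pairs open in both libraries, 0.310 and 0.309. Gm9922-Lmo7 had 0.322 and 0.459. Cd274, which encodes the immune checkpoint ligand PD-L1, and Plgrkt, the plasminogen receptor, shared a peak of 0.585 and 0.517. Lcp1, an actin bundler of leukocytes, and Lrrc63 had 0.633 and 0.884. Rad51c, a homologous recombination factor, and Tex14, a gene of germ cell bridges, had 0.573 and 0.951, and Cenpj-Parp4 had 0.681 and 0.851. The median over all peaks was 0.848 in replicate 1 and 0.801 in replicate 2. All 6 pairs lay below it in replicate 1, and 3 of the 6 in replicate 2, where Rad51c-Tex14, Lrrc63-Lcp1 and Cenpj-Parp4 lay above it.

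The libraries ranked the pairs alike. Across the 685 pairs open in both, which share their sequence and gap between libraries, the heights correlated with r = 0.973 (Pearson, log2 of the height) and Spearman's rho = 0.978, given as a description. Only 2 pairs differed by more than 2-fold (0.292%), against 32 of the 7660 one-sided promoters (0.418%). Rita1-Ddx54 had 2 peaks with 17.5 as the taller in replicate 1 and 1 peak of 8.53 in replicate 2. The histone pair Hist1h2ak-Hist1h2bn had 2.47 in replicate 1 and 1.01 in replicate 2. In the other direction, Kctd10-Ube3b had 1.16 in replicate 1 and 2.10 in replicate 2. Another 4 pairs had a peak in replicate 2 alone: Grik5-Zfp574 (1.08), P3h4-Fkbp10 (0.959), Surf4-Stkld1 (2.69) and Tbc1d16-Ccdc40 (0.776). No pair had a peak in replicate 1 alone.

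Of 20 gene pairs listed from the literature as bidirectional, 7 met the rule. Atm, the DNA damage kinase, and Npat, the histone gene activator, shared 1 peak of 10.6 in replicate 1 and 12.1 in replicate 2. Mcm4, a subunit of the replicative helicase, and Prkdc, the DNA-dependent protein kinase, had 2 peaks, the taller 13.2 and 12.3. Brca1-Nbr1, a repair gene and an autophagy receptor, had 3.61 and 4.54. Mrps12-Sars2 had 8.25 and 8.92, and Hadha-Hadhb, the subunits of the mitochondrial trifunctional protein, 3.36 and 4.05. Of the 7, only Col4a4-Col4a3, chains of a basement membrane collagen of kidney glomeruli, had no peak, and the nearest one was 26215 bp away in replicate 1 and 26086 bp in replicate 2. The count of open pairs, 6 of 7, stands beside 93.3% over all pairs.

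Head-to-head pairs drew unevenly on gene families. Over all autosomal protein-coding genes, 6.96% lay in such a pair, and 685 of all 734 pairs were open in both libraries (93.3%). Among genes of DNA replication and repair, 32 of 96 did (33.3%), and 30 of their 31 pairs were open in both libraries. Among mitochondrial ribosomal proteins, 18 of 78 did (23.1%), with 18 of 18 pairs open. Genes of oxidative phosphorylation and its assembly followed with 23 of 103 (22.3%; 22 of 23 open), and spliceosome and Sm proteins with 11 of 59 (18.6%; 11 of 11 open). For proteasome genes it was 7 of 49 and for tRNA synthetases 5 of 37, with all pairs open. Cytosolic ribosomal proteins, at 9 of 88 (10.2%), were nearer to the background. Mitochondrial import genes (4 of 24, 16.7%) and motile cilia genes (5 of 39, 12.8%) were few in number. Zinc finger genes (Zfp symbols; 20 of 385, 5.19%) and synaptic and neuronal genes (2 of 70, 2.86%) lay below the 6.96% of all genes. The open counts given here were near the open share over all pairs. The lists were matched by symbol, and these are counts without a test.

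**Figure D4:**
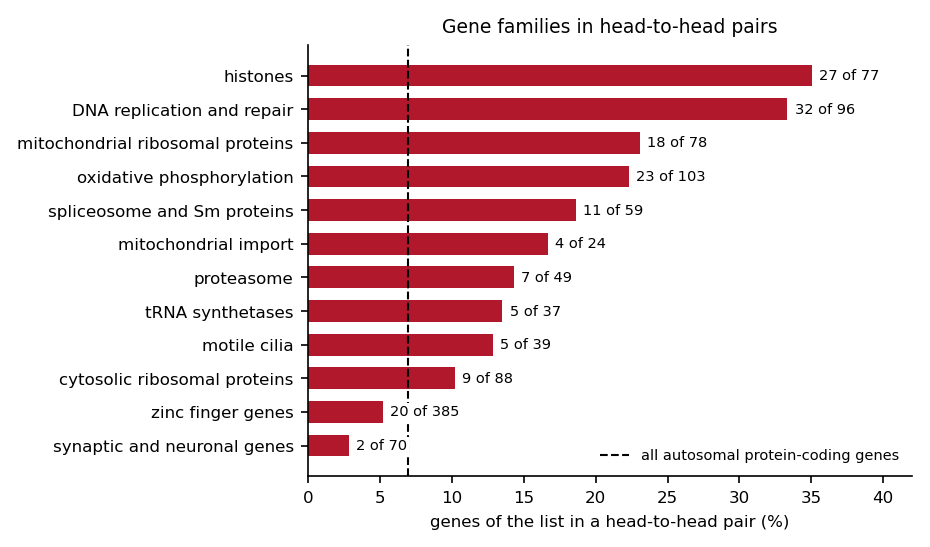
Share of the genes of 12 families that lie in a head-to-head pair (%, bars, with counts), and the share of all autosomal protein-coding genes as a dashed line (6.96%). Histones (27 of 77) and DNA replication and repair genes (32 of 96) have the longest bars, and synaptic and neuronal genes (2 of 70) the shortest.

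Within the families, heights varied several-fold. Mitochondrial ribosomal promoters ran from 2.10 in replicate 1 and 1.55 in replicate 2 at Zfp661-Mrps5 to 10.3 and 9.93 at Mrpl49-Fau. The promoter of Mrpl32 and Psma2, a proteasome alpha subunit, had 9.15 and 9.62. Repair gene promoters ran from Rad51c-Tex14 to Mcm4-Prkdc, with Tsc2-Nthl1 at 1.58 in both libraries. Among splicing genes, Qpctl-Snrpd2 was tallest at 10.7 and 11.7, and Ccdc157-Sf3a1 lowest at 4.24 and 3.41. Both pairs with a gene of the synaptic and neuronal list had wide gaps. Tmem126b-Dlg2, where Dlg2 encodes the scaffold PSD-93, had 11.9 and 11.3 over a gap of 671 bp. Nlgn2, the neuroligin of inhibitory synapses, and Tmem256 had 8.56 and 9.82 over 730 bp.

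Replication-dependent histone genes are the classic head-to-head family, an H2A gene facing an H2B gene, and 27 of 77 histone genes lay in 14 pairs. Of these pairs, 11 were open in both libraries, at modest heights with medians of 3.33 in replicate 1 and 2.39 in replicate 2. The tallest was Hist1h2bf-Hist1h2ad with 7.52 and 7.26. Closed were Hist1h2bq-Hist1h2ao, Hist1h2ap-Hist1h2br and Hist1h2ba-Hist1h2aa, the last one coding for testis histones. Among the 5 pairs with the largest excess of replicate 1 over replicate 2 were 3 histone pairs, while histone pairs were 14 of all 734. Many of these genes are near-identical copies, and how reads that map to several of them were counted is not given in the sources used here, so single values of this family are uncertain.

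No peak was called in either library at 45 pairs. Their windows had a median GC content of 54.9%, against 62.9% in pairs open in both, and an observed-to-expected CpG ratio of 0.401, against 0.844. The smallest gaps without a peak were those of Best1-Rab3il1 (36 bp), Tradd-Fbxl8 (39 bp), Rnf151-Rps2 (53 bp), 4930430F08Rik-1700017N19Rik (61 bp), Kctd19-Lrrc36 (69 bp) and Col4a4-Col4a3 (72 bp). In 18 of the 45 no peak lay within 5000 bp in either library, and in 7 a peak lay within 1000 bp in both.

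At 16 of the 45 closed pairs, at least 1 gene had another annotated transcript start with a peak within 200 bp in both libraries. Rps2, a ribosomal protein, had one 1947 bp from the end used here, with heights of 10.998 and 8.97. Xrcc1, a repair scaffold that faces Pinlyp, had one 861 bp away, with 11.1 and 12.1. Ccnt1, the cyclin of the elongation factor P-TEFb, had one 3243 bp away, with 12.6 and 15.2. Ndufa5, a complex I subunit that faces Asb15, had one 443 bp away, with 4.11 and 3.31. For those genes the outermost annotated start, which the rule takes, was not the open one. Other open starts lay far off, up to 36884 bp away at Nmur1 and 42669 bp at Sirt1. The same count was not made for closed one-sided promoters. In 29 pairs neither gene had an open start. Cut rates below a false discovery rate of 0.05 reached into the closed windows of Ndufa5-Asb15 (79 bases in replicate 1 and 133 in replicate 2) and of Sirt1-Dnajc12 (93 and 260 bases), with a peak just outside each.

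Short consensus motifs differed between the classes as well. They were searched on both strands in the reference genome, so no library enters, and a match is not a binding site. The ETS core CCGGAAG, bound by GABP and its relatives, matched in 35.8% of head-to-head windows (95% Wilson interval 32.4 to 39.4, which covers the counting of windows only). It matched in 11.7% of one-sided windows, a ratio of 3.07, and in 16.1% of them after weighting for GC content. The BANP element TCTCGCGA matched in 5.86% of pairs, against 1.21%, and 2.00% weighted. The YY1 sequence AAGATGGC matched in 12.1%, against 4.11%, and 4.82% weighted. A pair's window holds 200 bp inside each of 2 genes and a one-sided window 200 bp inside 1, and YY1 sequences lay mostly inside genes. Per gene, 4.35% of paired genes had a YY1 sequence in their first 100 bases, against 1.93% of one-sided genes. For NRF1 (GCATGCGC), a regulator of mitochondrial genes, the share of windows was 8.17% against 3.60%, and 5.20% weighted. The CREB element TGACGTCA matched in 5.18% against 2.46%, and 3.46% weighted. At least 1 of these 5 or of the ZNF143 core ACTACAA was present in 57.6% of pairs, against 24.7% of one-sided promoters, and at least 2 kinds in 15.5%, against 3.68%. Each of these motifs was by itself more frequent in pairs, so a higher joint share was largely set by the choice of motifs. The joint shares were not weighted for GC content. Within windows open in both libraries the differences were smaller: the shares with at least 1 were 60.3% in pairs and 38.5% in one-sided promoters. For the ETS core alone they were 37.8% and 21.1%, for YY1 12.8% and 6.45%, and for BANP 5.84% and 2.53%. For NRF1 they were 8.61% and 6.76%, and for CRE 5.55% and 4.43%. Genes facing a noncoding record had the ETS core in 26.0% of windows, YY1 in 7.45%, NRF1 in 7.09%, CRE in 4.09% and BANP in 2.28%. In their open windows NRF1 matched in 8.63%, next to 8.61% in open pairs.

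The GC box GGGCGG, bound by SP and KLF factors, matched in 81.1% of pairs, against 48.4% of one-sided windows, but in 75.4% of them after weighting for GC content. The TATA sequence TATAAA was rarer in pairs, with 7.49% against 20.8%, and 10.9% weighted. The neuronal bHLH E-box CAGATG followed the same direction with 17.7% against 26.6%, and 21.2% weighted, and so did the AP-1 site TGANTCA with 6.81% against 11.3%, and 7.81% weighted. The E-box CACGTG matched in 16.2% against 10.4%, and 13.8% weighted. The CCAAT box of NF-Y matched in 55.3% against 51.3%, and 46.4% weighted, and the ZNF143 core in 7.90% against 5.79%, and 4.20% weighted. The RFX element GTTGCCAT matched in 3.13% against 1.71%, the CTCF core CCACNAGGG in 2.45% against 2.78%, and the MEF2 site CTATTTTTA in 0.409% against 0.810%. These 3 rested on 23, 18 and 3 pairs.

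**Figure D5:**
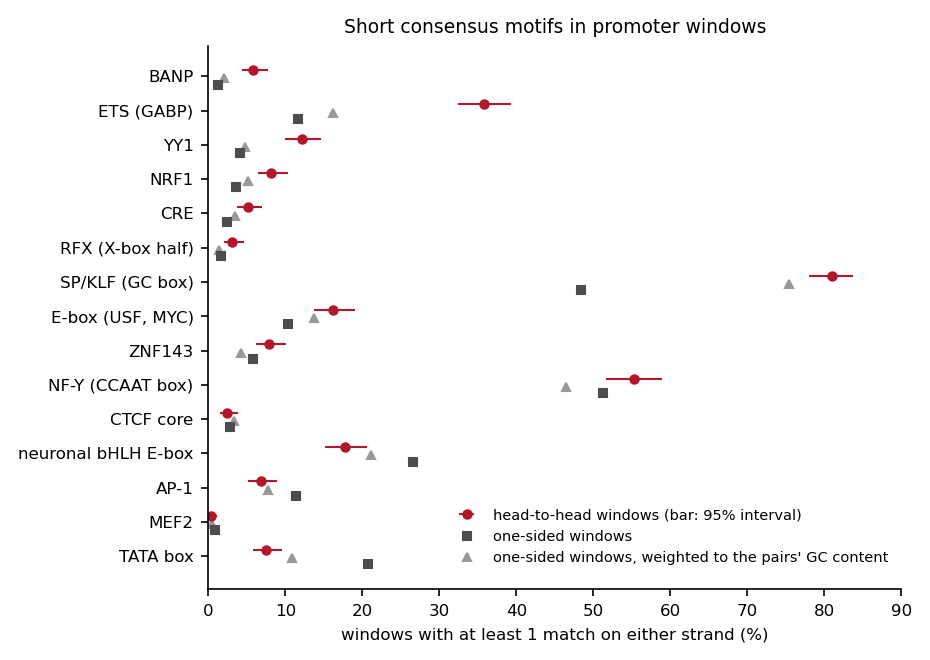
Share of windows (%, horizontal axis) with a match to each of 15 motifs on either strand, sorted by the ratio of head-to-head over one-sided windows: head-to-head windows as circles with a 95% Wilson interval, one-sided windows weighted to the pairs' GC content as triangles, and one-sided windows as squares. The ETS core lies at 35.8% in pairs and at 11.7% and 16.1% in one-sided windows, and the TATA sequence at 7.49% in pairs and at 20.8% and 10.9%.

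The motifs took different places within the pairs. CCAAT boxes were 4.36 times as dense between the 5′ ends (4.02 per kb) as in the flanks inside the genes (0.922 per kb). BANP elements were 3.22 times as dense between the ends, CRE elements 3.15 times, NRF1 elements 2.41 times, GC boxes 1.96 times and ETS cores 1.36 times. YY1 sequences were placed the other way, with 14 sites between the ends and 80 in the flanks, a ratio of densities of 0.367. This layout was not particular to pairs. One-sided genes had 4158 CCAAT boxes in the 100 bases upstream and 1760 in the first 100 bases inside, and 67 and 335 YY1 sequences. BANP, CRE, NRF1, GC box and ETS sites were also more numerous upstream there. In the first 100 bases of the paired genes, 54 of 63 YY1 sequences lay on the gene's own strand (85.7%), against 267 of 335 in one-sided genes (79.7%). Of the ETS cores there, 71 lay on the gene's strand and 72 on the other.

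Height varied with the CCAAT box. Open pairs with one had median heights of 6.22 in replicate 1 and 6.08 in replicate 2, against 4.26 and 4.09 in pairs without one. Pairs with a CCAAT box also had wider gaps, a median of 166.5 bp against 87.5 bp, so the comparison was repeated within gap bins. Up to 100 bp the medians were 4.79 and 5.28 with the box (118 pairs), against 3.92 and 3.70 without it (174 pairs). At 101 to 200 bp they were 5.97 and 5.83, against 5.85 and 5.39 (113 and 71 pairs), and at 201 to 300 bp 7.79 and 7.60 (60 pairs), against 4.31 and 4.36 (32 pairs). The ratio was thus 1.02 and 1.08 in the middle bin and 1.81 and 1.74 in the third. ZNF143 cores went with height up to 100 bp, with 6.28 and 6.38 in 22 pairs, against 4.16 and 4.04 in 270. For ETS cores the values there were 4.29 and 4.10 in 123 pairs, against 4.37 and 4.25 in 169. At 101 to 200 bp they were 6.74 and 6.06 in 71 pairs, against 5.58 and 5.26 in 113. These within-bin values were chosen after the pooled ones were seen.

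Footprints were frequent. Member peaks held 3708 footprints in replicate 1 and 4308 in replicate 2, or 16.3 and 17.6 per kb of peak, against 13.9 and 14.9 per kb in one-sided promoter peaks. The ratio was 1.18 ± 0.00537 (SD, n = 2 libraries). Peak height moved with it: with one-sided peaks weighted to the members' deciles of height, the ratio was 0.967. An open pair held a median of 5 footprints in replicate 1 and 6 in replicate 2, against 4 and 5 for an open one-sided promoter. Within member peaks, footprints were denser between the 5′ ends, with 19.9 and 20.3 per kb, than elsewhere, with 14.1 and 16.1 per kb. The most footprints were found at Asphd1-Sez6l2, whose gap is 981 bp, with 24 and 36. They were counted over the whole length of its 3 peaks in each library, not over the gap alone. Sez6l2 encodes a neuronal membrane protein. A pair with a narrow gap could also have many. Ddx5-Cep95, with an RNA helicase and a centrosomal protein 67 bp apart, had 15 and 17, counted over its 2 whole peaks.

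Some motifs lay in footprints far more often than the peak bases around them, of which footprints covered 25.4% in replicate 1 and 27.3% in replicate 2. Of the NRF1 elements in member peaks, 84.2% of 101 and 79.4% of 97 were footprinted, against 72.8% and 74.7% in one-sided peaks. Of the CRE elements, 94.6% of 37 and 77.5% of 40 were, against 78.3% and 77.8%. For GC boxes it was 63.7% and 64.0%, against 47.9% and 49.3%, and for BANP elements 52.5% and 47.7%, against 47.6% and 46.4%. ETS cores were footprinted in 32.8% and 35.1% of cases, against 26.7% and 32.5%. CCAAT boxes stayed near the level of the surrounding bases, with 23.2% and 26.9%, against 19.4% and 21.5%, although they went with tall peaks. The E-box CACGTG was footprinted in 27.4% and 28.4% of cases, against 32.3% and 31.8%, and YY1 sequences in 13 of 71 and 22 of 69 cases, against 100 of 400 and 143 of 427, so that both shares were lower in member peaks. One-sided peaks had fewer of their bases in footprints, 19.9% and 21.2%. Relative to the surrounding bases, most of these motifs were footprinted less in member peaks than in one-sided peaks in both libraries. The ratio over surrounding bases was 3.31 and 2.91, against 3.66 and 3.52, for NRF1, and 3.72 and 2.84, against 3.94 and 3.67, for CRE. It was 2.06 and 1.75, against 2.40 and 2.19, for BANP, and 1.29 in each library, against 1.34 and 1.53, for ETS. For CCAAT boxes it was 0.913 and 0.986, against 0.978 and 1.01, for the E-box 1.08 and 1.04, against 1.63 and 1.501, and for YY1 0.720 and 1.17, against 1.26 and 1.58. Only GC boxes, of these 8 motifs, had the higher ratio in member peaks, 2.51 and 2.35, against 2.41 and 2.32. Among the other motifs, TATA and AP-1 sequences also had the higher ratio in member peaks in both libraries, on 21 to 26 sites each.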

How the data were processed

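DNase-seq was measured in 2 libraries of mouse frontal cortex, analysed as 1 group. The authors deposited, per library, 2 peak lists with a signal (height) per peak, footprints and cut rates, all in mm10 per the labels. The deposited cut rates are q-values (false discovery rates), listed where below 0.05. The deposited footprints carry a constant q-value of 0.01. The aligner, the callers and the scale of the signal are not given in the sources used here. Read depth is unknown, and the spread of both libraries is the measure of precision. Reads of the hybrid that map less well at variants could lower single heights.

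Gene records came from GENCODE M21 and bases from GRCm38.p6, the same coordinates as mm10. The longer peak list of each library was used. A window was open where a peak overlapped it by at least 1 bp. One-sided windows were also weighted to the pairs' 10 deciles of GC content. The measurements were tested on simulated peaks (Python 3.11.15, numpy 2.4.6, pandas 2.3.3). The windows, motifs, gene lists and pairs were chosen with earlier results of these data known. Named pairs were the 10 tallest, the 6 lowest open ones, the 6 smallest gaps without a peak, the 2 nearest the median of each gap bin, those differing most between libraries, those with most footprints, the widest gap under 1 peak, literature pairs, and the extremes of families; others were chosen after their values were seen. A few pairs that this rule names are not reported here.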

Additional observations from a re-analysis of the deposited data

How the results depend on the processing

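The share of pairs open in both libraries (93.3%) was 91.3% with the shorter peak lists, 89.5% without the extension of 200 bp and 93.7% with 500 bp, 94.4% for gaps up to 500 bp, 92.1% where most of the peak had to lie in the window, 93.9% without predicted gene models, 92.1% with peaks above the library's median height and 91.8% with equal windows, and 93.3% to 93.9% with either library alone. The difference to one-sided promoters (49.0 points) was 53.2, 51.6, 46.3, 50.2, 51.0, 46.7, 53.2 and 47.5 under the same 8 settings, 46.4 to 47.2 with either library alone, 27.2 with GC weighting, 47.4 with one-sided windows reaching 1000 bp upstream and 47.5 with genes facing noncoding records kept in. The height ratio (2.02) was 1.72 with the shorter lists, 1.88 and 2.09 with extensions of 0 and 500 bp, 1.86 with GC weighting and 1.96 with noncoding pairs kept in. The ratio of covered length (1.09) was 1.12 with the shorter lists, and 1.08 with GC weighting and with 1000 bp upstream. Open pairs had a single peak in 78.2% of cases, 80.4% with the shorter lists, 90.3% and 58.2% with extensions of 0 and 500 bp, and 81.5% for gaps up to 500 bp, where 1 peak covered both ends in 64.9% in place of 59.6%. Midpoints lay between the ends in 56.9% of member peaks, and in 65.7% and 45.7% with extensions of 0 and 500 bp. The footprint ratio (1.18) was 1.07 with the shorter lists, 1.21 for gaps up to 500 bp, 1.15 with GC weighting, and turned to 0.967 with height weighting, an alternative chosen after seeing the data.

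Of 15 motifs, 10 were more frequent in pairs, and 6 when one-sided windows reached 1000 bp upstream, which made them longer than the pairs' windows. There the differences in points turned for NF-Y (-30.1), the E-box CACGTG (-3.85), ZNF143 (-6.60) and RFX (-0.619). With an extension of 500 bp they turned for NF-Y (-3.30) and CTCF (1.26), and with 0 bp for MEF2 (0.000709) and the neuronal bHLH E-box (0.949). The cause was not tested. Other differences kept their sign in the settings tried but not their size. In points, ETS (24.2) ranged from 10.5 without the extension to 27.2 with 500 bp, YY1 (8.02) from 1.28 without the extension to 8.55, with 2.32 at 1000 bp upstream, and the GC box (32.7) from 5.68 with GC weighting to 33.9. Without the extension, windows leave out the stretch inside the genes, where most YY1 sequences lay. NRF1 (4.58) ranged from 1.85 in open windows to 5.27, CRE (2.72) from 1.12 in open windows to 3.22, and BANP (4.65) from 3.09 to 5.58. TATA (-13.3) ranged from -49.1 to -3.38, and AP-1 (-4.53) from -24.7 to -0.629. Unknown read depth limits what a window without a peak shows, and 2 libraries of 1 tissue give no spread between groups.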
